A study of Danio rerio with 4 samples.

Results

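Hes-family transcriptional repressors were followed in a comparison of sorted centroacinar cells (CAC) with sorted non-centroacinar cells (non-CAC) from the pancreas of adult AB zebrafish. The members were chosen by name, as the rows of the deposited gene tables called her15.1, her15.2, her6, her2 or her11, and make up 5 of 3020 distinct genes in those tables. Each population had 2 libraries, and each replicate pair of 1 CAC and 1 non-CAC library has a table of its own, which lists 1812 genes in replicate 1 and 1560 in replicate 2. Of the members, her15.1, her15.2 and her6 were in both tables, her2 was in the replicate 1 table only and her11 was in the replicate 2 table only. No transgene, sorting marker or gate is named in the labels, so whether the sort itself depended on Notch activity is unknown here. The fish are described as adult, with no age and no number of fish per library stated.

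Centroacinar cells line the ends of the finest pancreatic ducts, where these open into the acini. When a Notch receptor binds a Delta or Jagged ligand on a neighbouring cell, its intracellular part is cut free and acts with the DNA-binding protein RBPJ to switch on genes of the Hes family. Hes proteins are basic helix-loop-helix repressors that hold back differentiation genes, and in the mouse pancreas Hes1 represses the endocrine regulator gene Neurog3. The zebrafish genes her15.1 and her15.2 are counterparts of mammalian Hes5, and her6 is a counterpart of Hes1. The gene her2 is a basic helix-loop-helix gene related to Hes5 and is unrelated to the receptor tyrosine kinase that shares its name. The gene her11, also called him, is known from zebrafish somite formation and from the midbrain-hindbrain boundary.

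What the tables give for a gene is a ratio between the libraries of its pair. The authors deposited a posterior ratio, estimated by their model, an uncorrected ratio, and the posterior probability that expression was equal in both libraries. Which population forms the numerator is not named in the headers, so a gene is described as below 1 or above 1, and not as higher in CAC or in non-CAC. No level per library is given, the depth per library is unknown, and fewer cells of a type in a library cannot be told apart from less RNA per cell. The tables list called genes only, each at a posterior probability of 0.99 or more of a difference, so the absence of a gene can mean a small difference, a low level or no difference.

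Every listed member lay below 1. In replicate 1 this held for 4 of 4 listed members, where 33.4% of all listed genes lay below 1, and in replicate 2 for 4 of 4, where 57.1% did. Listed in both tables were 3 of the 5 members, namely her15.1, her15.2 and her6, where 11.7% of all distinct genes were. All 3 were on the same side in both, as were 331 of the 352 genes listed in both. This reading, like every mean, SD and test over both tables below, assumes that both tables put the same population in the numerator, which no header states. With the ratios of replicate 2 turned over, 0 of these 3 members and 21 of all 352 genes in both tables would be on the same side, against 3 and 331 as deposited. The turned counts follow from the deposited ones and are no check of them. Of the 4 members below 1 in replicate 1, 3 were also below 1 in replicate 2, where 35.6% of all genes below 1 in replicate 1 were. Seen from replicate 2, the same 3 of 4 stand beside 24.3% of all genes below 1 there. The members were named with these results known, so the counts are a description.

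**Figure D1:**
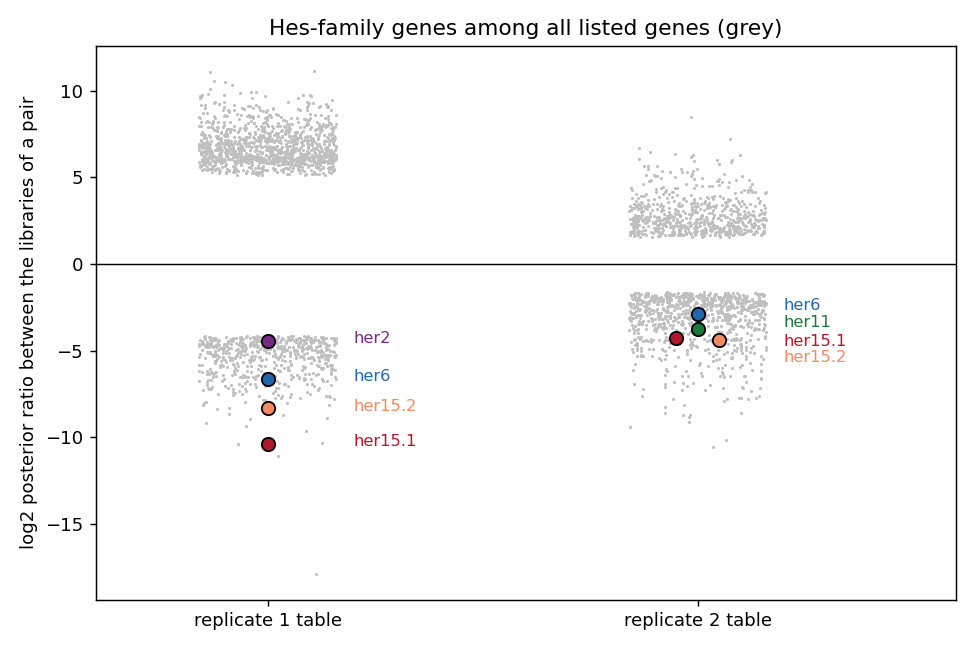
Log2 posterior ratio (vertical axis) of every gene listed in the table of replicate 1 and of replicate 2 (grey points, spread sideways for visibility), with the Hes-family genes coloured and named. All 8 coloured points lie below 0, spread from -10.38 to -4.43 in replicate 1 and drawn together between -4.37 and -2.88 in replicate 2.

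Of the Hes5-type genes, her15.1 was the farthest from 1 in replicate 1. It is annotated as ENSDARG00000054562 on Zv9 chromosome 11, from 43089904 to 43091345. In the authors' deposited table of replicate 1 its posterior ratio was 0.000748, which is 1337-fold below 1, and in that of replicate 2 it was 0.0526, or 19.0-fold below 1. On the log2 scale the deposited ratios were -10.38 and -4.25, with a mean of -7.32 ± 4.34 (SD, n = 2 pairs). Both pairs thus lay on the same side, but their log2 ratios differed by more than the size of the replicate 2 value. Among the genes below 1, it was the 3rd lowest of 606 in replicate 1 and ranked 198 of 890 in replicate 2. Its neighbours by rank in the deposited table of replicate 1 were the chloride channel gene clcn1b at -11.07 and SLC4A10, a bicarbonate transporter gene, at -9.64.

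The neighbouring copy her15.2 (ENSDARG00000054560, Zv9 chromosome 11, 43102142 to 43103588) was the member second farthest from 1 in replicate 1 and the farthest in replicate 2. Its posterior ratio in the authors' deposited tables was 0.00312 in replicate 1, 320.1-fold below 1, and 0.0482 in replicate 2, 20.7-fold below 1. As deposited log2 ratios these were -8.32 and -4.37, with a mean of -6.35 ± 2.79 (SD, n = 2 pairs). The gene ranked 13 of 606 from the lowest in replicate 1 and 181 of 890 in replicate 2. The copies did not keep their order. In replicate 1, her15.1 minus her15.2 was -2.06 on the log2 scale, a 4.18-fold distance between their deposited ratios, and in replicate 2 it was 0.13, a 1.09-fold distance. Reads may be shared between such closely related copies, depending on how they were counted, so their separate values are uncertain.

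The third gene of this kind, her2 (ENSDARG00000038205, Zv9 chromosome 11, 43073538 to 43077202), had a deposited posterior ratio of 0.0462 in the authors' table of replicate 1, 21.6-fold below 1, or -4.43 on the log2 scale. It ranked 508 of 606 from the lowest, close to the edge of the table, where the listed gene nearest to 1 from below stood at -4.13. Its posterior probability of equal expression in the authors' deposited table was 0.00473, against 0.00999 for the least certain gene listed below 1. It was not listed in replicate 2, so it has no second pair and no spread.

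These 3 genes lie together. They span 30.1 kb of Zv9 chromosome 11, from 43073538 to 43103588, with gaps of 12.7 kb between her2 and her15.1 and of 10.8 kb between her15.1 and her15.2. In the order of genes on the RefSeq assembly GRCz12tu they are also direct neighbours. Of the listed genes with a readable locus, the 1 other within 250 kb of them was AL929185.1, which lay 114 kb from her15.2 and above 1, at a deposited log2 ratio of 2.19 in the authors' table of replicate 2. Within the cluster, the deposited ratios of replicate 1 differed by up to 61.8-fold, between her15.1 and her2.

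The Hes1-type gene her6 (ENSDARG00000006514, Zv9 chromosome 6, 36329654 to 36332018) lay nearer to 1 than both her15 genes in each replicate. Its posterior ratio in the authors' deposited tables was 0.0101 in replicate 1, 99.0-fold below 1, and 0.136 in replicate 2, 7.36-fold below 1. The deposited log2 ratios were -6.63 and -2.88, with a mean of -4.75 ± 2.65 (SD, n = 2 pairs). It ranked 89 of 606 genes below 1 in replicate 1 and 423 of 890 in replicate 2, so about the middle of the side there. The distance from her15.1 to her6 was 13.5-fold in replicate 1 and 2.58-fold in replicate 2, and that from her15.2 to her6 was 3.23-fold and 2.82-fold. No other listed gene with a readable locus was found within 250 kb of it.

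The last member, her11 (ENSDARG00000002707, Zv9 chromosome 14, 31408113 to 31410596), had a posterior ratio of 0.0756, deposited by the authors in their replicate 2 table, 13.2-fold below 1, or -3.73 on the log2 scale. It ranked 250 of 890, between CD81 and si:ch211-234p6.13, both also at deposited log2 ratios of -3.73 and -3.72. It was not listed in replicate 1, where no gene below 1 was listed nearer to 1 than -4.13. A gene with its replicate 2 ratio would lie outside the range seen there. However, genes below 1 in both replicates had log2 ratios a median of 1.99 times as large in replicate 1. That median covers only genes listed in both, and the listing reached nearer to 1 in replicate 2, to -1.62. Why her11 was absent there was not tested. Its uncorrected log2 ratio in the authors' deposited table was -4.48, a factor of 1.68 from the posterior ratio. By the uncorrected column it was level with the her15 genes, at -4.42 for her15.1 and -4.59 for her15.2 in the authors' deposited table. Within 250 kb, ccdc85b was listed, at a deposited log2 ratio of -4.84 in the authors' table of replicate 1 only. For the other members the factor between the fold columns ran from 1.00 for her6 to 1.16 for her15.2, over both tables. None of the members was a floor gene, meaning a gene whose fold columns differ by over 10 times. Below 1, 52 of the 606 genes in replicate 1 and 98 of the 890 in replicate 2 were floor genes. Above 1, 767 of the 1206 genes in replicate 1 and 65 of the 670 in replicate 2 were.

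The posterior probability ordered the members differently from the ratio in replicate 2. In replicate 1 the probability of equal expression rose in step with the ratio across the genes below 1, with a Spearman's rho of 0.98 over 606 genes, while in replicate 2 rho was 0.64 over 890 genes. These are descriptions across genes that share libraries. In the authors' deposited table of replicate 1 this probability was 1.79e-11 for her15.1, 1.7e-08 for her15.2, 9.79e-06 for her6 and 0.00473 for her2, the same order as their ratios. In that of replicate 2 it was 6.85e-11 for her15.1, 1.12e-10 for her15.2, 1.5e-09 for her6 and 0.00171 for her11. By the posterior ratio of replicate 2, her11 was 1.80-fold farther from 1 than her6 and her15.2 was 1.09-fold farther from 1 than her15.1, so within both pairs the order by probability was the opposite of that by ratio.

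Genes with nearly the same ratio show how the members stand. Within 0.25 of her11 on the log2 scale there were 77 other genes in replicate 2, and 68 of them had a lower probability of equal expression than her11, while their median, from the authors' deposited table, was 6.87e-06. Within the same distance of her6 there were 132 other genes, and only 4 had a lower probability than her6, with a deposited median of 9.12e-05. In replicate 1, 32 of the 42 genes as close to her6 had a lower probability, and for her2 72 of 171 did. In replicate 2, 18 of the 59 genes as close to her15.1 and 16 of the 58 as close to her15.2 had a lower probability. Floor genes made up 17 of those 59 and 22 of those 58, and 0 of the genes as close to her6 or her11 in replicate 2. Of the members in replicate 2, her6 thus sat at the more certain side for its ratio. With the floor genes counted, both her15 genes did too, and the part of the floor genes in this was not tested. The gene her11 sat at the less certain side. Though their ratios were nearer to 1 in replicate 2, her6 and her15.2 had a lower probability of equal expression there than in replicate 1. For her15.1 it was higher there. The median of the deposited probabilities over all genes below 1 was also lower in replicate 2, at 0.000207 against 0.000755 in replicate 1.

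**Figure D2:**
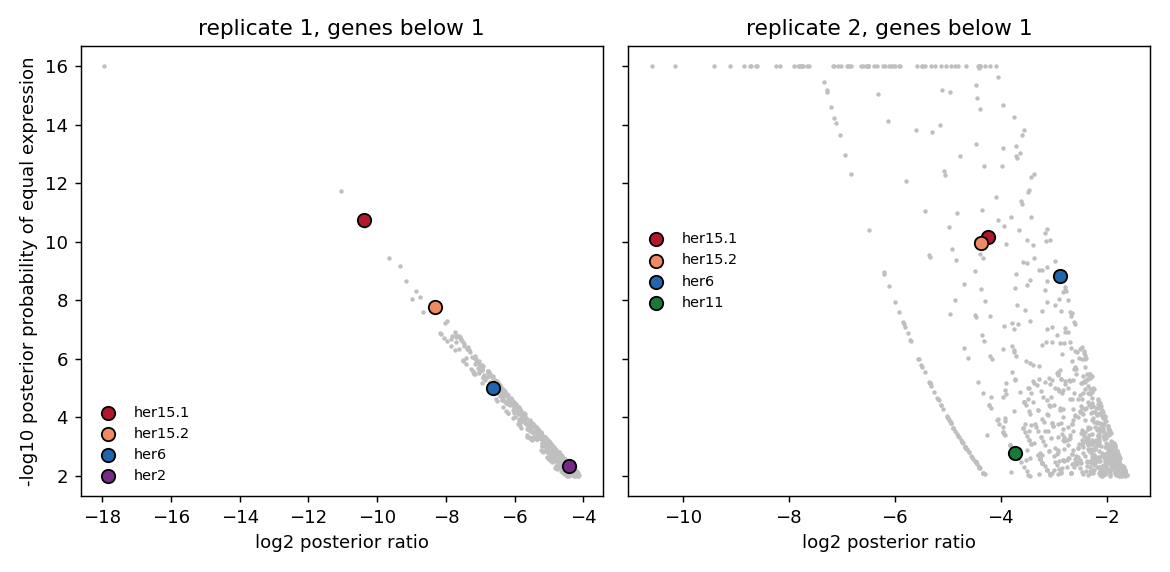
Log2 posterior ratio (horizontal axis) against -log10 of the posterior probability of equal expression (vertical axis, higher is more certain) for the genes below 1 in each replicate, with the Hes-family genes coloured; probabilities at or under the axis limit of 16 are drawn at 16 (1 gene in replicate 1 and 66 in replicate 2). In replicate 1 the genes follow 1 narrow band, and in replicate 2 they fan out. There her6 lies near the upper edge of the points at its ratio, and her11 lies low among those at its own.

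Across replicates, the deposited log2 ratio of her15.1 was 2.44 times as large in replicate 1 as in replicate 2 and that of her15.2 1.90 times, with her6 between them. The median of this quotient over the 216 genes below 1 in both tables was 1.99, with quartiles of 1.61 and 2.39. Only genes listed in both tables enter it. The listed genes nearest to 1 from below stood at -4.13 in replicate 1 and -1.62 in replicate 2, so the quotients depend on these unequal limits. So her15.2 and her6 lay within the middle of all shared genes and her15.1 just above the upper quartile. By the mean of both log2 ratios as deposited, her15.1 was the 7th lowest of the 216 genes, her15.2 the 11th and her6 the 67th.

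A limma fit with a replicate block, on the within-replicate log2 ratios of all 352 genes in both tables, called 0 of the 3 members at a Benjamini-Hochberg adjusted p of 0.05, where 1.14% of the genes were called below 1. At an unadjusted p of 0.05 it called 3 of 3, where 29.5% of the genes were called below 1. The adjusted p from limma was 0.0535 for her15.1, 0.0678 for her15.2 and 0.0816 for her6, and the unadjusted p was 0.000912, 0.00394 and 0.0304. Each of these genes was below 1 in 2 of 2 pairs, with a standard error of 2.19 on the log2 scale that limma gave all genes alike. This error and the SDs above include the difference in size of the listed log2 ratios between the tables. Among genes below 1 in both, log2 ratios were a median of 1.99 times as large in replicate 1. The unequal limits of listing enter that median, and their part in it was not tested. The error and SDs therefore do not measure the spread of single genes alone. The 3 members are in the fit because both tables list them as different, so the p-values carry that selection.

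**Figure D3:**
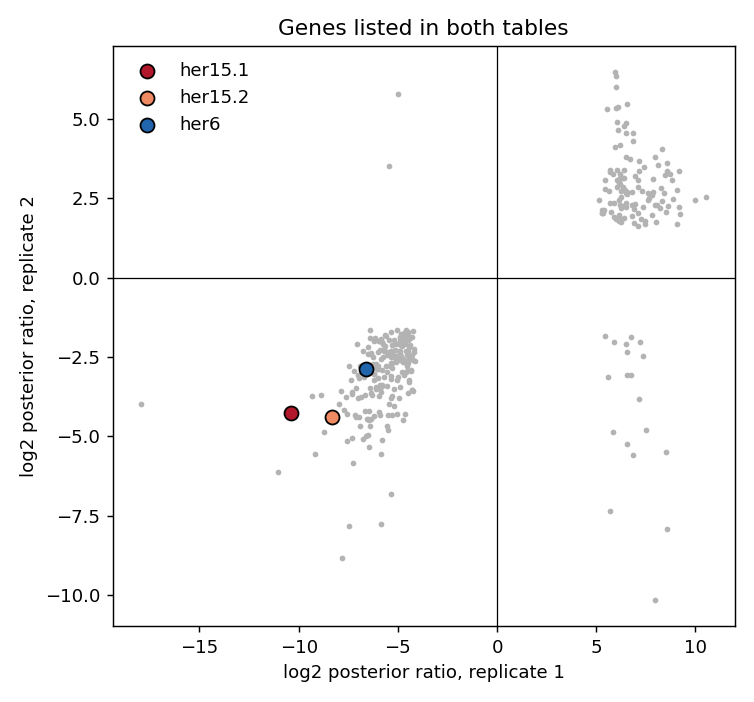
Log2 posterior ratio in replicate 1 (horizontal axis) against replicate 2 (vertical axis) for the 352 genes listed in both tables (grey), with the Hes-family genes listed in both coloured. All 3 lie in the lower left panel area, where both ratios are below 1, and her15.1 at -10.38 and her15.2 at -8.32 lie left of most genes there.

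Of 28 Hes, Hey and related repressor genes looked up by symbol, the 5 members were the only ones in either table. The other 23, among them the Hes5-type cluster her4.1 to her4.5 and her12, the Hes1-type gene her9, the gene her5, which is the direct neighbour of her11 on GRCz12tu, and the Hey genes hey1, hey2 and heyl, were in neither. Of the 5 members, all 5 symbols were found in the RefSeq table.

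Genes of the Notch pathway other than the members were looked up as well. How many genes were measured is not known here, so no share of all measured genes can stand beside the number listed. Of 45 such genes, 1 lay below and 3 above 1 in replicate 1, and 3 below and 0 above in replicate 2. Of all listed genes, 33.4% lay below 1 in replicate 1 and 57.1% in replicate 2. The receptor gene notch3 was the 1 pathway gene in both. Its deposited log2 ratios in the authors' tables were -6.02 and -2.79, beside -6.63 and -2.88 for her6. In replicate 1 notch3 lay outside the distance of 0.25 from her6, within which there were 42 other genes. In replicate 2 it was among the 132 genes within that distance, so its nearness was not particular. The receptor gene notch1a and nrarpb, a Notch-induced feedback inhibitor gene, were listed in replicate 2 only, at -1.70 and -1.68 in the authors' deposited table, nearer to 1 than any member. Above 1 and in replicate 1 only were 3 ligand genes. In the authors' deposited table, dlb had a ratio of 68.8, jag2a one of 82.5 and dld one of 267. The first 2 were floor genes, as were 63.6% of the genes above 1 in that table, and 66.6% of all its genes lay above 1. None of the 18 genes for processing and endocytosis of ligands and receptors was listed, and none of the RBPJ and Mastermind genes.

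Downstream, 3 of 11 proneural basic helix-loop-helix genes were listed, each in 1 table. The endocrine regulator gene neurog3 lay on the side of the members, with -6.95 as its deposited log2 ratio in the authors' table of replicate 1, and was a floor gene with an uncorrected value of -14.11. The neural gene neurog1 lay above 1 there, at 6.01, also as a floor gene in the authors' deposited table. The acinar regulator gene ptf1a lay above 1 in the authors' deposited table of replicate 2, at 2.74. Of 13 corepressor and Id genes, the authors' deposited tables placed id4 at 6.35 in replicate 1, as a floor gene, and id2a at -2.31 in replicate 2. Id proteins bind basic helix-loop-helix factors and keep them from DNA. None of the corepressor genes of the tle family was listed.

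**Figure D4:**
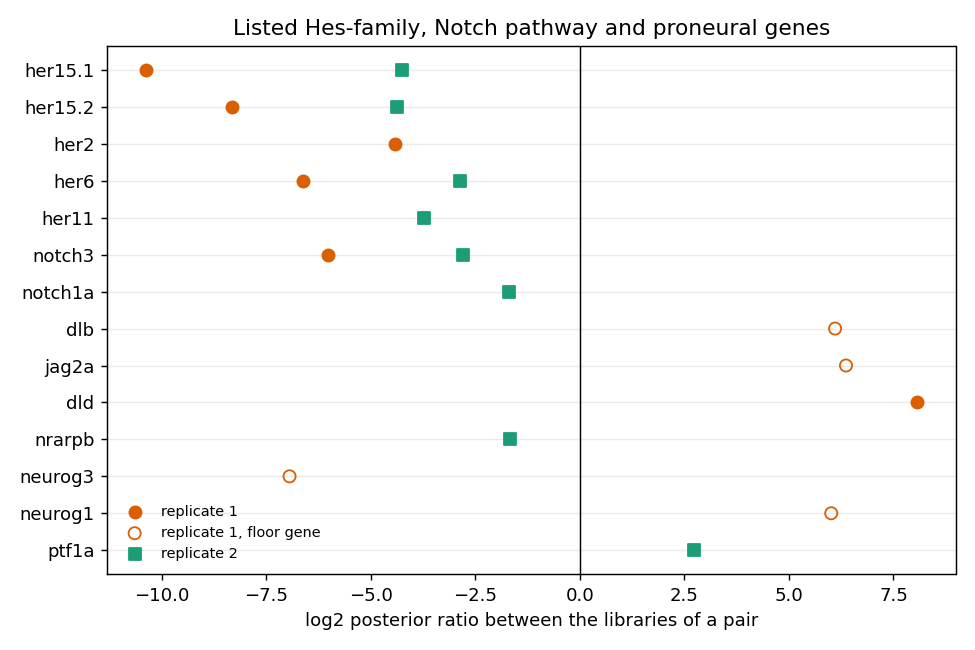
Log2 posterior ratio (horizontal axis) of each listed Hes-family gene, Notch receptor, ligand and feedback gene, and proneural gene in replicate 1 (circles) and replicate 2 (squares); open symbols are floor genes, whose fold columns differ by over 10 times. The Hes-family genes, the receptors and nrarpb lie left of 0, and the 3 ligand genes lie right of it, with dld farthest at 8.06.

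Cell type markers lay on the side of the members or on the other side, as follows. Of 12 ductal and centroacinar markers, the replicate 1 table held 8, with all 8 below 1, where 33.4% of all listed genes were. The replicate 2 table held 10, with 9 below 1 and 1 above, where 57.1% of all listed genes lay below 1. Of 14 acinar markers, 0 were listed in replicate 1, and 13 in replicate 2, all 13 above 1, where 42.9% of all listed genes lay above 1. Of 10 endocrine markers, 2 were listed in replicate 1, with neurog3 below 1 and the other above 1, both as floor genes. The 1 endocrine marker listed in replicate 2 lay above 1. Of 9 oocyte genes, the 2 listed in replicate 1 lay above 1, both as floor genes. The 6 listed in replicate 2 lay below 1, on the side of the members, and 1 of these 6 was a floor gene. Leukocyte markers lay above 1 wherever listed, 7 of 10 in replicate 1 and 3 in replicate 2, and the neural markers likewise, 3 of 5 in each. In replicate 1, 66.6% of all listed genes lay above 1, and 63.6% of those were floor genes. Of the leukocyte genes listed there 5 of 7 were floor genes, and of the neural genes 2 of 3. In replicate 2, 1 of 3 was a floor gene in either list, where 9.70% of all genes above 1 were. The part of these cell types in the members' ratios was not tested.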

How the data were processed

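RNA was sequenced from 4 sorted libraries, made with a TruSeq kit per the labels' protocols. The submitters' processing notes name RSEM, Zv9 and danRer7, without version or role. No source used here names the model behind the probabilities. Per the file headers, the authors deposited posterior probabilities as fractions and 2 fold columns as linear ratios between the libraries of a pair, with no counts, so the planned count test was not run. The planned sequence features were not analysed here. Loci are as deposited, taken as Zv9. The deposited probabilities are the authors' and cover 1 pair each.

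Ratios were put on the log2 scale, without a pseudocount. Members were matched by the deposited gene name, list genes also through the identifier in a table of gene names, which held 2048 of 3020 identifiers. Text names the members, every listed gene of the Hes, Notch and proneural lists, and neighbours by rank. Members and lists were chosen with earlier results of these data known. Within a table there is 1 library per group, hence no test. Across tables, limma 3.58.1 (R 4.3.3) was fitted with the replicate as a block, after a check on simulated data; the sample descriptions put both libraries of a replicate in 1 table, which pairs them. The labels do not say whether replicates came from separate fish, so spread may be technical. Tables were handled with Python 3.11.15 and pandas 2.3.3. Alternatives were the uncorrected fold, a stricter probability, a 4-fold minimum, centring on the table's median and each table alone.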

Additional observations from a re-analysis of the deposited data

How the results depend on the processing

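All listed members stayed below 1 with the uncorrected fold, at 4-fold and after centring each table on its median. In replicate 1 the 4-fold minimum could remove no gene below 1, since none was listed nearer to 1 than -4.13. Centring could only move members farther down there, since 66.6% of the listed genes lay above 1. A median over called genes follows the balance of the sides. A posterior probability of equal expression under 0.001 left 3 members in each table, without her2 in replicate 1 and her11 in replicate 2, and the same 3 in both. The count on the same side cannot be taken from either table alone. Turning over the ratios of replicate 2 takes it from 3 to 0 by construction, so this is no check of the count. That alternative was chosen after seeing the data. It moved the mean log2 ratio of her15.1 to -3.07, of her15.2 to -1.97 and of her6 to -1.88. By limma with the replicate block, 0 of the 3 members in both tables were called at an adjusted p of 0.05. That is a count of calls, and it leaves the sides of these members unchanged. Notch pathway counts were less stable. The stricter probability left 1 gene above 1 in replicate 1 (dld) and 1 below 1 in replicate 2 (notch3), 4-fold left 1 below 1 in replicate 2, and centring left 1 below and put 2 above there (notch1a and nrarpb). Centring moved her15.1 in replicate 1 to -16.41 and her6 in replicate 2 to -0.98. The alternatives planned for counts were not run, since the files hold none. Without counts, neither depth nor a limit of detection can be given.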
